A study of Mus musculus with 13 samples.

Results

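The 36 genes described here encode the folding, oxidation, quality control and stress signalling machinery of the endoplasmic reticulum (ER). They were listed by gene symbol. All 36 were measured among the 34419 genes of the count table, and all 36 were among the 17779 that passed the filter on low counts. RNA was sequenced from gluteal white adipose tissue (WAT), a subcutaneous depot of the hindquarters, of male C57BL/6J mice aged 13 weeks that had lived since birth at 22°C (7 mice) or 29°C (6 mice). The cooler temperature is ordinary room temperature and the warmer one is close to thermoneutrality for a mouse. Both groups were bred at their temperature, lost their posterior hair to a depilatory once weaned, and lived alone with little bedding, so hair loss is shared and no furred mice enter the comparison. The question was how gene expression in white fat differs after lifelong housing at the cooler temperature.

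Proteins destined for secretion or for membranes fold in the ER, helped by HSP70 and HSP90 family chaperones, by lectin chaperones that bind sugar chains, and by enzymes that form disulfide bonds. When unfolded proteins accumulate, the sensors IRE1 (gene *Ern1*), PERK (*Eif2ak3*) and ATF6 start the unfolded protein response, which raises chaperones and ER-associated degradation through XBP1 and ATF6 and slows translation while favouring ATF4 and CHOP (*Ddit3*). Adipocytes secrete hormones and lipases through this route, and fibroblasts of the same tissue send collagen through it. Much of this signalling acts on splicing, cleavage, phosphorylation and translation, which gene counts do not show.

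Library totals ran from 22356637 to 25245785 counts. Mice 1 to 5 at 22°C formed a cluster of lower totals, and the other 2 mice at 22°C sat with all 6 mice at 29°C, so the lower cluster holds a single temperature. All 8 adipocyte markers were above 0 counts in every library. Skeletal muscle markers summed to 716 to 66407 CPM (counts scaled to a common library size, and for sums over marker lists to the plain library total) at 22°C and 83.8 to 6200 CPM at 29°C, with mice 1 and 7 at 22°C at 46221 and 66407. None of the 10 muscle markers was at 0 in any library. Nothing in the labels says that mice came from separate litters, so p-values measure the spread between these 13 libraries.

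Most of the 36 genes were lower at 22°C, with the lowest medians among the chaperones and the disulfide enzymes. The log2 fold change (22°C over 29°C) was below 0 for 29 of 36 genes (80.6%) and above 0 for 7, with a median of -0.15, whereas 48.4% of all 17779 genes were below 0 and their median was 0.01. Of the 36 genes, 5 (*Hsp90b1*, *Hyou1*, *Manf*, *Pdia6* and *Edem1*) fell at P-adj below 0.1, or 13.9% against 1.21% of all genes tested. One gene, *Atf4*, rose, which is 1 of 36 or 2.78% against 0.731% of all genes. In bulk tissue, fewer cells of a type and less RNA per cell cannot be told apart. At an unadjusted p below 0.05 there were 16 of the 36, 12 lower and 4 higher, beside 18.5% of all genes in either direction.

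**Figure D1:**
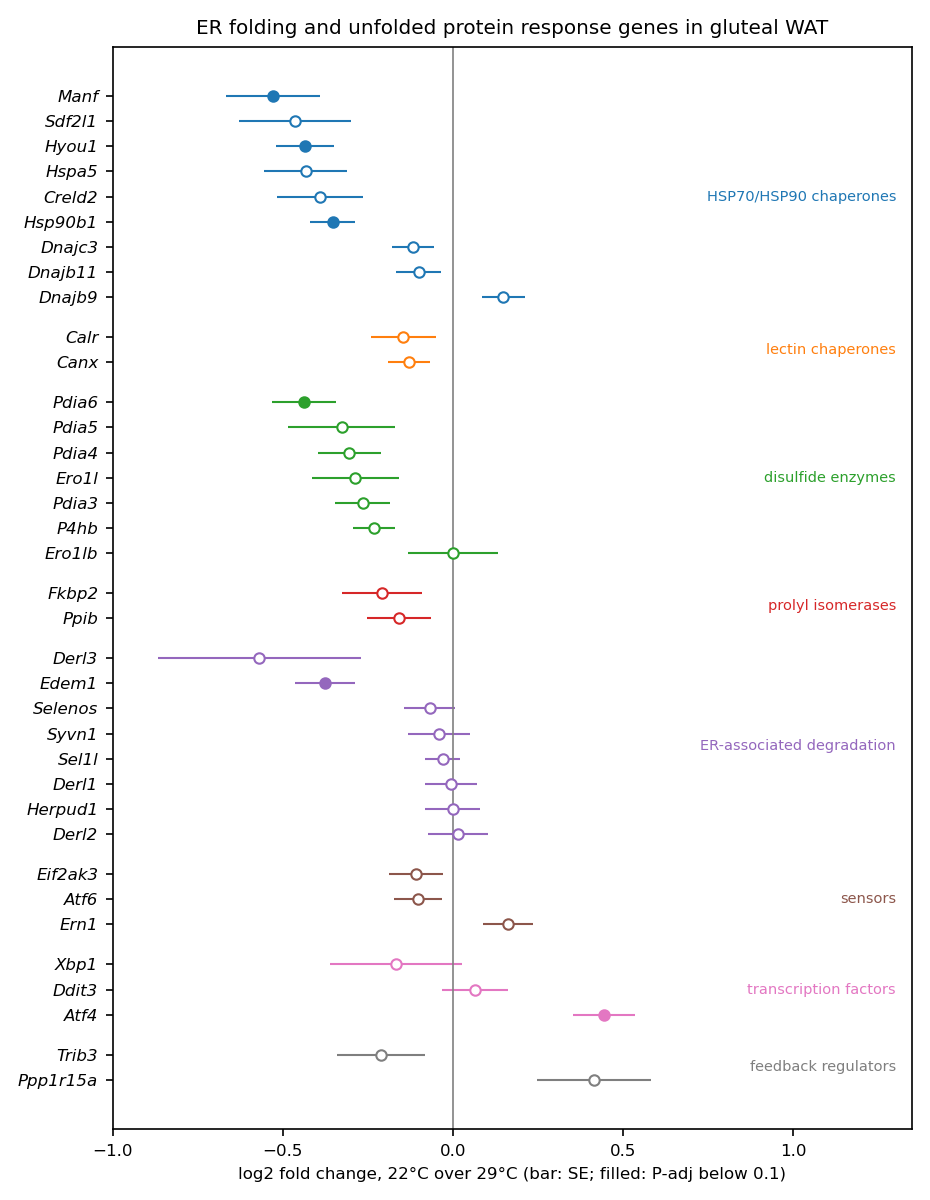
Log2 fold change between 22°C and 29°C of each of the 36 genes, grouped and coloured by role, with bars of 1 SE and filled points at P-adj below 0.1. Chaperones and disulfide enzymes lie mostly left of 0, ER-associated degradation genes other than *Edem1* and *Derl3* lie near 0, and *Atf4* (0.45) lies farthest to the right.

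The groups did not overlap at all in 4 genes that were lower at 22°C (*Hsp90b1*, *P4hb*, *Pdia6* and *Edem1*), against 0.748% of all genes, and in 1 that was higher (*Atf4*), against 0.495% of all genes. DESeq2 on the same counts called 11 lower genes among the 35 with an adjusted p, or 31.4%, against 4.65% of all genes. The 11 were the same 5 together with *Hspa5*, *P4hb*, *Pdia3*, *Pdia4*, *Creld2* and *Sdf2l1*. It called 1 higher gene, again *Atf4*, or 2.86% against 5.58% of all genes. These calls rest on the set of libraries: with edgeR, 0 of the 36 were called when the cluster of library totals was a covariate (12 at an unadjusted p below 0.05), when the 8 libraries with higher totals were used alone (12), when the muscle score was a covariate (15), or when mouse 3 at 29°C was left out (15). With the shared replicate number as a block, edgeR called 2 of the 36, *Hyou1* and *Atf4* (17 at an unadjusted p below 0.05). Nothing in the labels says that a number marks a shared source, though residuals of same-numbered mice correlated at 0.051 to 0.513 across genes. The P-adj given for single genes below are from fits without this block. The number of genes lower at 22°C stayed between 27 and 30 of 36 in every alternative tried.

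The HSP70 and HSP90 chaperones with their cochaperones were the group with the lowest median. Of 9 genes, 8 were lower at 22°C, 3 of them called, and the median log2 fold change was -0.39. *Hsp90b1*, which encodes the ER HSP90 chaperone GRP94, ranged from 266 to 307 CPM at 22°C with a median of 295, and from 339 to 424 CPM at 29°C with a median of 376. Every mouse at 22°C was below every mouse at 29°C. The log2 fold change was -0.35 (P-adj = 0.0503, SE 0.07), and the call held in 12 of the 13 fits that left out 1 mouse, being lost without mouse 3 at 29°C (P-adj = 0.147). Exons of *Hsp90b1* overlap the transcribed pseudogene *1810014B01Rik* on the opposite strand (log2 fold change -0.34) and *Gm15344* on the same strand (-0.37), and the strand setting of the counting is not given in the sources used here, so reads of the 3 genes may be shared.

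*Hspa5* encodes BiP, the ER HSP70 that binds unfolded chains and holds the stress sensors inactive. Its level ranged from 205 to 318 CPM at 22°C (median 263) and from 285 to 466.2 CPM at 29°C (median 339). At 22°C, 5 of the 7 mice were below all mice at 29°C, and mice 4 and 6 at 22°C overlapped the warmer group. The log2 fold change was -0.43 (SE 0.12), similar in size to that of *Hyou1*, but the P-adj was 0.119, and it reached 0.0787 without mouse 6 at 22°C. *Hyou1*, whose product is a large HSP70-like exchange factor for BiP, ranged from 46.2 to 63.5 CPM at 22°C (median 53.4) and from 60.6 to 82.3 CPM at 29°C (median 73.4). Mouse 6 at 22°C was the single cool mouse above the lowest warm mouse. *Hyou1* fell by 0.44 on the log2 scale (P-adj = 0.056, SE 0.09), and this call was lost without mouse 3 at 29°C (P-adj = 0.147).

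*Manf*, a secreted stabiliser of BiP complexes, ranged from 27.2 to 50.7 CPM at 22°C (median 36.3) and from 43.6 to 68.4 CPM at 29°C (median 53.2). Of the 7 cool mice, 6 were below all warm mice. The log2 fold change of -0.53 (SE 0.14) was just inside the threshold (P-adj = 0.0994) and was called in 1 of the 13 fits with a mouse left out, the one without mouse 6 at 22°C, with P-adj from 0.109 to 0.207 in the others. Exons of *Manf* overlap 3 other tested genes, among them the antisense gene *4930524O07Rik* (log2 fold change -0.37). *Sdf2l1* and *Creld2*, both ER proteins induced in the unfolded protein response, were not called. The level of *Sdf2l1* was 4.53 to 7.26 CPM at 22°C (median 5.34) and 5.83 to 10.3 CPM at 29°C (median 7.66), with 4 cool mice below all warm mice, a log2 fold change of -0.46 (SE 0.16) and a P-adj of 0.181. For *Creld2* the log2 fold change was -0.39 (P-adj = 0.156, SE 0.13).

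The J-domain cochaperones, which stimulate the ATPase of BiP, had log2 fold changes of smaller size than the other genes of this group. The difference between them was not tested. *Dnajb11* had a log2 fold change of -0.10 (P-adj = 0.445, SE 0.07) and *Dnajc3* one of -0.12 (P-adj = 0.336, SE 0.06). *Dnajb9*, which encodes ERdj4 and is a known XBP1 target, lay above 0 at 0.15 (P-adj = 0.236, SE 0.06), with 5 of 7 cool mice above all warm mice. It was the single chaperone gene in which the cool mice lay higher.

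**Figure D2:**
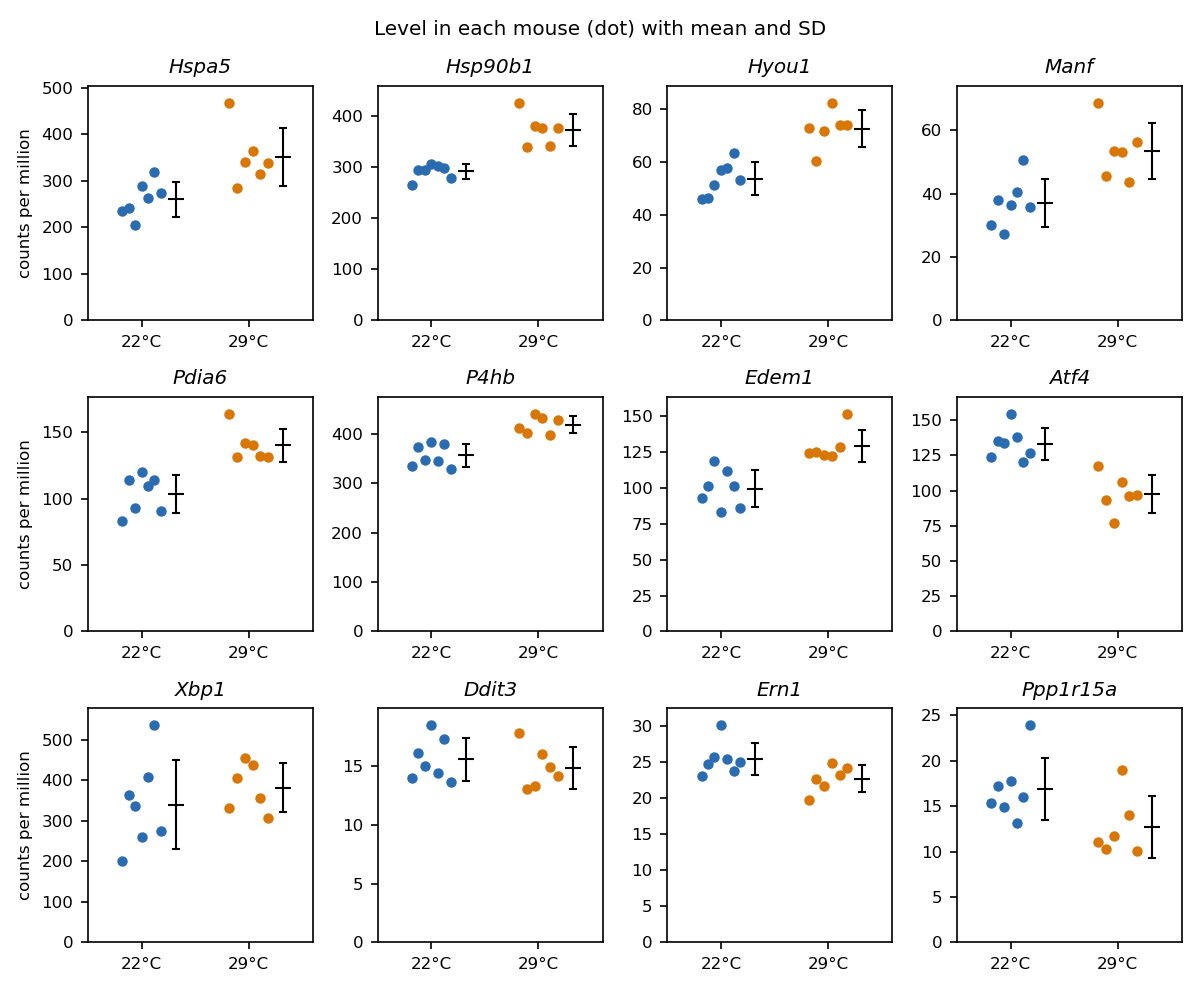
CPM of 12 genes in each mouse (dots), with the mean and SD of each temperature in black. *Hsp90b1*, *P4hb*, *Pdia6* and *Edem1* show no overlap with 29°C above, *Atf4* shows no overlap with 22°C above, and *Xbp1* spreads from 200.3 to 536 at 22°C around the warm mice.

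Promoters are shown because several of these genes share a sequence that few other genes carry. The ER stress response element (ERSE), through which ATF6 and XBP1 are known to act with NF-Y, was searched as CCAAT, then 9 bases of any kind, then CCACG, on both strands of a RefSeq window (GRCm38.p6) from 250 bases before to 50 bases after the transcription start. Windows were at hand for 32 of the 36 genes (not *Hyou1*, *Manf*, *Derl1* or *Atf6*). The ERSE was found in 10 of 32 (31.2%), namely *Hspa5*, *Hsp90b1*, *Dnajc3*, *Creld2*, *Calr*, *Canx*, *Pdia6*, *Ero1lb*, *Syvn1* and *Derl3*, and in 39 of all 32841 windows (0.119%). The shorter ERSE-II, searched as ATTGG, 1 base and CCACG, was found in *Dnajb11* and *Herpud1* and in 0.0365% of all windows. The lines that follow are 5′ to 3′ on the strand of the gene, with the fixed letters of the motif in capitals. On the opposite strand the motif reads as CGTGG and ATTGG. They come from 2 called genes (*Hsp90b1* with 2 sites, *Pdia6*), 2 with large but uncalled differences (*Hspa5*, *Creld2*) and 3 near 0 or not called (*Calr*, *Syvn1* and, with ERSE-II, *Herpud1*).
Hspa5, chr2:34772005-34772063, plus strand: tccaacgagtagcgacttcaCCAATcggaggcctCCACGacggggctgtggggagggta
Hsp90b1 distal, chr10:86705618-86705676, minus strand: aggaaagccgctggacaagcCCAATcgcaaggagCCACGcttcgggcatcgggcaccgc
Hsp90b1 proximal, chr10:86705513-86705571, minus strand: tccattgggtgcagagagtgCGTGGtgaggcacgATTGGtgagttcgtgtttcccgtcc
Pdia6, chr12:17266471-17266529, plus strand: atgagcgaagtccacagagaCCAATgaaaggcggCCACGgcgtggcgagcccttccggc
Creld2, chr15:88819500-88819558, plus strand: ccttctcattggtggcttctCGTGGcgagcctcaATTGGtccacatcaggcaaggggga
Calr, chr8:84847055-84847113, minus strand: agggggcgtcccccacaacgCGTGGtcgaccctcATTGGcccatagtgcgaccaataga
Syvn1, chr19:6046512-6046570, plus strand: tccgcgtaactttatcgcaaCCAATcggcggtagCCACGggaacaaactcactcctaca
Herpud1, chr8:94386357-94386407, plus strand: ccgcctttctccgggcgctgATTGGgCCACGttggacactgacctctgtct

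Genes with and without the element covered overlapping ranges of change. The 10 genes with an ERSE had log2 fold changes from -0.57 to 0.00 with a median of -0.25, 9 of them below 0 and 2 called lower. The 22 genes with a window and no ERSE ranged from -0.46 to 0.45 with a median of -0.13, 16 of them below 0, 1 called lower and 1 called higher. These 22 include the ERSE-II genes *Dnajb11* and *Herpud1*. With ERSE-II counted too, the order of the medians turned. It was -0.14 for the 12 genes with either element (11 below 0) and -0.16 for the 20 without (14 below 0). The difference between these sets was not tested. *Edem1* and *Atf4*, both called, had none of the searched motifs in their windows. The unfolded protein response element TGACGTGG was in 0 of 32 windows of these genes and in 0.676% of all windows. The composite site for ATF4 with a C/EBP factor (TGATG, 1 base, AA) was found in *Herpud1* and *Trib3* and in 3.97% of all windows. A match is a description of letters and was not tested for binding.

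**Figure D3:**
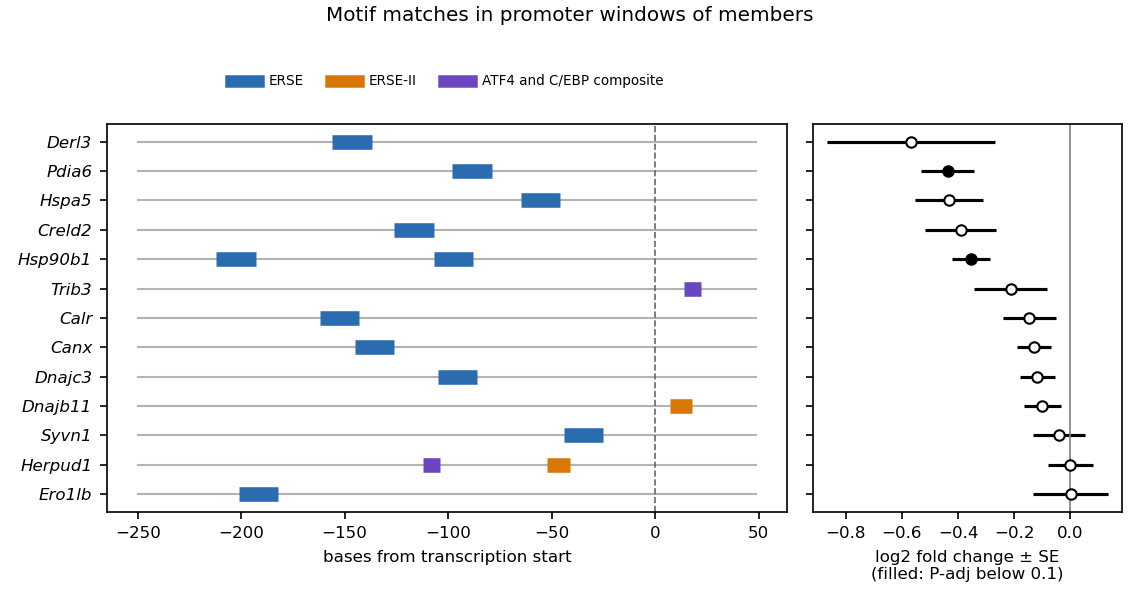
Left, position of each motif match in bases from the transcription start for the 13 genes with a match, with the window as a grey line; right, the log2 fold change of the same genes with 1 SE, filled at P-adj below 0.1. ERSE matches lie upstream of the start in all 10 genes, and the genes that carry one run from *Derl3* at -0.57 to *Ero1lb* at 0.00.

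Enzymes that make and reshuffle disulfide bonds were lower in 6 of 7 genes, with a median of -0.29, and 1 was called. *Pdia6*, a protein disulfide isomerase that works with BiP, ranged from 83.0 to 120.4 CPM at 22°C (median 109.9) and from 131 to 164 CPM at 29°C (median 136). All cool mice were below all warm mice. *Pdia6* fell by 0.44 on the log2 scale (P-adj = 0.0714, SE 0.09), and the call was lost without any one of mice 1, 2, 3 or 4 at 29°C (P-adj from 0.116 to 0.166). *P4hb* encodes protein disulfide isomerase itself, which is also the beta subunit of collagen prolyl 4-hydroxylase. It ranged from 329 to 384 CPM at 22°C (median 347) and from 397 to 439 CPM at 29°C (median 420.1). The groups did not overlap, yet the log2 fold change of -0.23 (SE 0.06) had a P-adj of 0.110 and reached 0.0895 without mouse 6 at 22°C.

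The other isomerases lay in the same direction without passing the test. *Pdia3*, the partner of the lectin chaperones, had a log2 fold change of -0.27 (P-adj = 0.137, SE 0.08), *Pdia4* one of -0.30 (P-adj = 0.137, SE 0.09) and *Pdia5* one of -0.33 (P-adj = 0.287, SE 0.16). The 2 ER oxidases, which pass electrons from the isomerases to oxygen, differed from each other in value. *Ero1l* had a log2 fold change of -0.29 (P-adj = 0.252, SE 0.13) and *Ero1lb* one of 0.0006 (P-adj = 0.998, SE 0.13). The difference between the oxidases was not tested.

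The lectin chaperones and the prolyl isomerases were lower by smaller values, with 0 of 4 genes called by edgeR or by DESeq2 and 0 at an unadjusted p below 0.05. *Calr* (calreticulin) had a log2 fold change of -0.15 (P-adj = 0.438, SE 0.10) and *Canx* (calnexin) one of -0.13 (P-adj = 0.277, SE 0.06), with 4 of 7 cool mice below all warm mice for *Canx*. *Ppib* (cyclophilin B) had a log2 fold change of -0.16 (P-adj = 0.389, SE 0.09) and *Fkbp2* one of -0.21 (P-adj = 0.367, SE 0.12).

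ER-associated degradation, which extracts misfolded proteins for the proteasome, was little different except at *Edem1*. Of 8 genes, 7 were below 0 and 1 was called, with a median of -0.04. *Edem1* encodes a lectin that trims mannose from misfolded glycoproteins. Its level ranged from 83.5 to 119 CPM at 22°C (median 101) and from 122 to 151 CPM at 29°C (median 125). Every cool mouse was below every warm mouse, and mouse 6 at 29°C stood above the others. *Edem1* fell by 0.38 on the log2 scale (P-adj = 0.0848, SE 0.09) and was called in 3 of the 13 fits with a mouse left out, those without mouse 3, 5 or 6 at 22°C, while in the other fits the P-adj was between 0.104 and 0.170.

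The ubiquitin ligase complex and its channel were close to equal between temperatures. The ligase *Syvn1* (HRD1) had a log2 fold change of -0.04 (P-adj = 0.848, SE 0.09) and its adaptor *Sel1l* one of -0.03 (P-adj = 0.793, SE 0.05). *Herpud1*, which organises that complex, averaged 88.1 CPM (SD 10.7, n = 7) in cool mice and 88.1 CPM (SD 6.45, n = 6) in warm mice, a log2 fold change of -0.0004 (SE 0.08). *Derl1* had a log2 fold change of -0.01 (SE 0.08), *Derl2* one of 0.01 (SE 0.09) and *Selenos* one of -0.07 (P-adj = 0.675, SE 0.08). *Derl3* had the lowest log2 fold change of all 36 genes and also the fewest reads. It ranged from 0.363 to 0.848 CPM at 22°C (median 0.551) and from 0.379 to 1.354 CPM at 29°C (median 0.854), from counts of 8 to 36 per library. The groups overlapped over most of their range, and the log2 fold change was -0.57 (P-adj = 0.330, SE 0.30).

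The 3 sensors were not called, nor was any of them called by DESeq2. *Ern1* ranged from 23.1 to 30.1 CPM at 22°C (median 25.0) and from 19.8 to 24.9 CPM at 29°C (median 22.9). All 7 cool mice were above the median of the warm mice and 4 were above every warm mouse, for a log2 fold change of 0.16 (P-adj = 0.261, SE 0.07). *Eif2ak3* ranged from 20.6 to 28.3 CPM at 22°C (median 23.4) and from 23.8 to 27.8 CPM at 29°C (median 25.9), a log2 fold change of -0.11 (P-adj = 0.498, SE 0.08). *Atf6* ranged from 49.9 to 65.3 CPM at 22°C (median 52.3) and from 56.5 to 63.7 CPM at 29°C (median 58.6), a log2 fold change of -0.10 (P-adj = 0.467, SE 0.07). For both genes the cool mice spanned values below and above all warm mice.

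Among the transcription factors, *Atf4* rose while *Xbp1* and *Ddit3* had values near 0 for their error. *Atf4*, whose product drives amino acid synthesis and stress genes, ranged from 120.0 to 154 CPM at 22°C (median 134) and from 76.7 to 117 CPM at 29°C (median 96.4). Every cool mouse was above every warm mouse. The log2 fold change was 0.45 (P-adj = 0.061, SE 0.09), and the call was lost without mouse 2, 3 or 5 at 29°C (P-adj from 0.102 to 0.144). *Atf4* is known to be controlled mainly at translation, and the ATF4 protein was not measured in these files.

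*Xbp1*, whose mRNA IRE1 splices to an active form, ranged from 200.3 to 536 CPM at 22°C (median 336) and from 306 to 456 CPM at 29°C (median 381). The cool mice lay on both sides of the warm mice, and the log2 fold change was -0.17 (P-adj = 0.689, SE 0.19). The counts do not separate the spliced form. *Ddit3*, which encodes CHOP, ranged from 13.7 to 18.5 CPM at 22°C (median 15.0) and from 13.0 to 17.8 CPM at 29°C (median 14.6), for a log2 fold change of 0.06 (P-adj = 0.760, SE 0.10). A further gene identifier with the same symbol held 46 to 80 counts per library and had a log2 fold change of 0.22 (P-adj = 0.367), and exons of *Ddit3* overlap it and *Mars*, so reads of these genes may be shared.

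The feedback regulators of this branch went in opposite directions in value. *Ppp1r15a* encodes GADD34, which lifts the block on translation. It ranged from 13.1 to 23.9 CPM at 22°C (median 16.0) and from 10.02 to 19.0 CPM at 29°C (median 11.4). All cool mice were above the warm median and the ranges overlapped, with a log2 fold change of 0.42 (P-adj = 0.216, SE 0.17). *Trib3*, a pseudokinase that restrains ATF4 and CHOP, had a log2 fold change of -0.21 (P-adj = 0.406, SE 0.13).

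**Figure D4:**
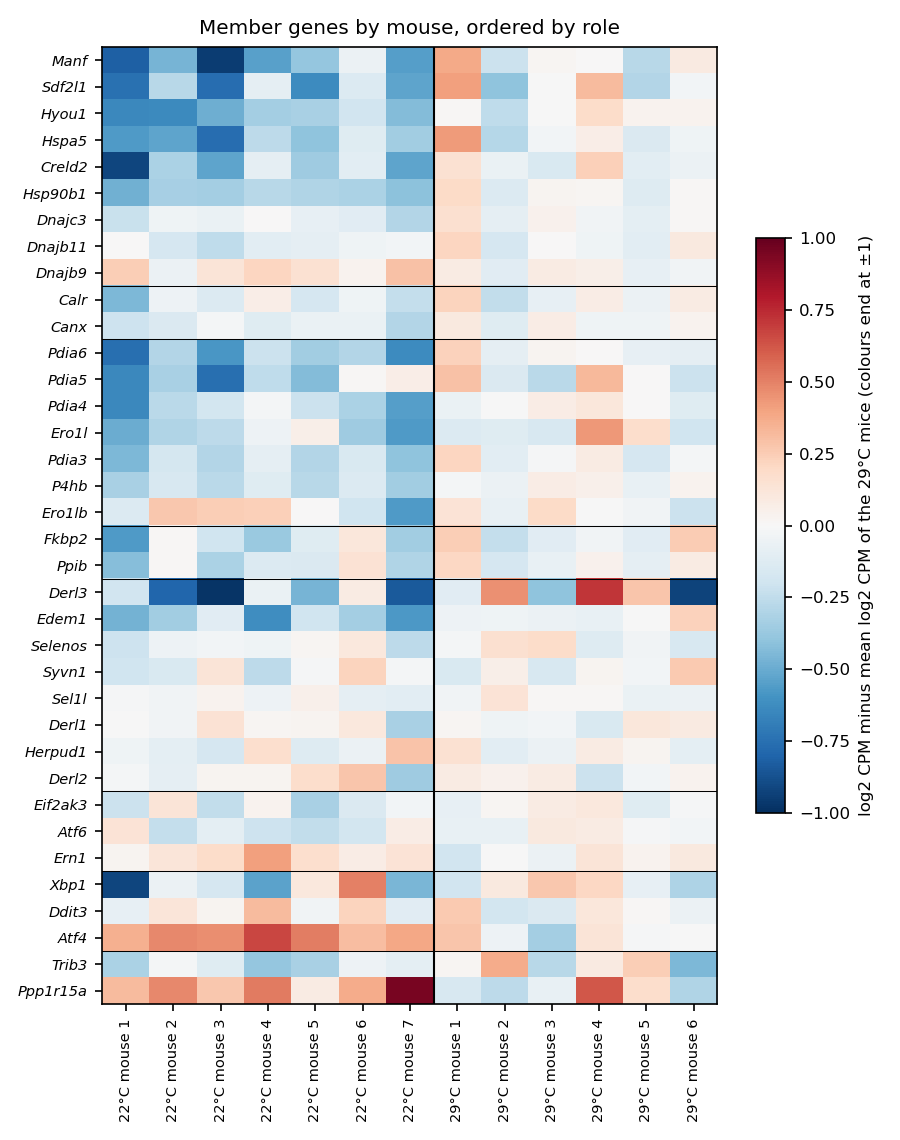
Log2 CPM of each of the 36 genes in each of the 13 mice, less the mean log2 CPM of the 29°C mice, with colours ending at 1 in each direction and lines between roles. Blue at 22°C is concentrated in the chaperone and disulfide rows and is deepest in mice 1, 3 and 7, whereas the *Atf4* row is red in all 7 cool mice.

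The cool mice differed among themselves in how low the folding genes were. Over the 20 chaperone, disulfide and isomerase genes, the mean log2 CPM relative to the 29°C mean ran from -0.46 to -0.12 at 22°C (median -0.22) and from -0.15 to 0.17 at 29°C. Mice 4 and 6 at 22°C overlapped the warm mice, and mice 1 (-0.46), 7 (-0.35) and 3 (-0.34) were lowest. The 36 genes together took 0.280% to 0.433% of all counts at 22°C (median 0.394%) and 0.402% to 0.473% at 29°C (median 0.428%). The lowest shares were in cool mice 1 (0.280%) and 7 (0.305%), whose totals hold the most muscle RNA, and the next was 0.366% in mouse 3.

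Summed markers of fibroblasts and macrophages were low in the same mice, and those of adipocytes were not low in all of them. These sums used plain library totals, which include the muscle RNA of mice 1 and 7 at 22°C. The TMM factors of these 2 mice were 0.85 and 0.88. Their marker sums are therefore lower than on the scaled CPM used for the folding genes. The 9 fibroblast and progenitor markers, collagens among them, summed to 4447 to 10513 CPM at 22°C (median 6895) and 7734 to 11529 CPM at 29°C (median 9104). They were lowest in mouse 1 at 22°C (4447) and low in mice 7 (6266), 3 (6855) and 5 (6895), and none was at 0 in any library. Of the 9, 7 were lower at 22°C and 2 higher (*Dcn* and *Dpp4*, both 0.22), with 0 called by edgeR. The collagens had log2 fold changes from -0.36 to -0.19, and the other lower markers from -0.47 (*Lum*) to -0.08 (*Pdgfra*). A fit with their score as a covariate, added after the data were seen, is given below. Whether these cells account for the differences was not tested. The 8 macrophage markers summed to 527 to 1296 CPM at 22°C and 670.1 to 1356 CPM at 29°C, with cool mice 1, 3, 5 and 7 between 527 and 847 and cool mice 2, 4 and 6 between 1135 and 1296. None of them was at 0 in any library, and their part in these results was not tested. The 8 adipocyte markers summed to 17464 to 29293 CPM at 22°C and 21398 to 31899 CPM at 29°C, lowest in cool mice 7 and 1 and highest among cool mice in mouse 3. Of all 67 marker genes tested, *Cd3e* of T lymphocytes was the single one called by edgeR (log2 fold change 1.78, P-adj = 0.0817). *Cd3e* averaged 1.04 CPM in cool mice and 0.297 CPM in warm mice. DESeq2 called 0 T lymphocyte markers, but 4 muscle markers as higher in cool mice and 1 fibroblast marker as lower. In edgeR all 10 muscle markers lay above 0, between 2.54 and 3.73 on the log2 scale, with 4 at an unadjusted p below 0.05. With the fibroblast score as a covariate, *Hsp90b1* (-0.32, P-adj = 0.0794), *Hyou1* (-0.39, P-adj = 0.0805), *Pdia6* (-0.37, P-adj = 0.0794), *Edem1* (-0.41, P-adj = 0.0928) and *Atf4* (0.49, P-adj = 0.0569) were called, and *Manf* was not (-0.42, P-adj = 0.139). Without mice 1 and 7 at 22°C, which held the most muscle RNA, *Hsp90b1* (-0.32, P-adj = 0.0728), *Hyou1* (-0.40, P-adj = 0.0822), *Pdia6* (-0.35, P-adj = 0.083) and *Atf4* (0.48, P-adj = 0.0724) were called. In that fit *Edem1* (-0.32, P-adj = 0.1415) and *Manf* (-0.47, P-adj = 0.174) were not. With the muscle score as a covariate *Hsp90b1*, *Hyou1*, *Pdia6* and *Atf4* had log2 fold changes of -0.34, -0.41, -0.42 and 0.41 in that order, with P-adj from 0.141 to 0.166. *Edem1* was at -0.26 (P-adj = 0.196) and *Manf* at -0.49 (P-adj = 0.235). Among the 8 libraries with higher totals, *Hsp90b1*, *Hyou1*, *Pdia6* and *Atf4* were at -0.38, -0.32, -0.47 and 0.33, with P-adj from 0.265 to 0.375. There *Edem1* was at -0.47 (P-adj = 0.261) and *Manf* at -0.31 (P-adj = 0.534). The 10 B lymphocyte and plasma cell markers, which mark cells rich in ER, summed to 181 to 314 CPM at 22°C and 86.2 to 714 CPM at 29°C, with *Mzb1* at 0 in some libraries, and their part in these results was not tested.

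The rest of the ER protein pathway was read from a list of 105 other genes, of which 103 were tested. *Tusc3* had no entry in the table analysed here and *Slc7a11* did not pass the filter on low counts. Of the 103, 66 were lower and 37 higher at 22°C, with a median of -0.05, beside 48.4% of all genes below 0. With edgeR 7 were called lower, against 1.21% of all genes, and 0 higher, against 0.731%. DESeq2 called 15 lower, against 4.65% of all genes, and 3 higher, against 5.58%. At an unadjusted p below 0.05 in edgeR, 24 were lower and 5 higher, beside 18.5% of all genes in either direction. Collagen folding and hydroxylation held the most edgeR calls, with 3 of 9 genes (4 with DESeq2). *Serpinh1*, the collagen chaperone HSP47, averaged 333 CPM (SD 44.3, n = 7) in cool mice and 511 CPM (SD 91.5, n = 6) in warm mice, with no overlap between groups (highest cool mouse 409.7, lowest warm mouse 434). It fell by 0.62 on the log2 scale (P-adj = 0.0554, SE 0.12), and the call was lost without mouse 1 or 3 at 29°C (P-adj of 0.104 and 0.121). *P4ha1* (-0.44, P-adj = 0.0873) and *P4ha2* (-0.35, P-adj = 0.0924), the catalytic subunits that pair with the product of *P4hb*, fell as well, and were called in 2 and 1 of the 13 fits with a mouse left out.

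In sugar attachment, 11 of 12 genes were lower and 1 was called. *Magt1*, an oxidoreductase subunit of oligosaccharyltransferase, averaged 49.2 CPM (SD 2.25, n = 7) in cool mice and 61.2 CPM (SD 3.39, n = 6) in warm mice, with no overlap. It fell by 0.31 (P-adj = 0.0179, SE 0.05) and was called in all 13 fits with a mouse left out. *Rpn2*, of the same complex, had a log2 fold change of -0.17 (P-adj = 0.164). Of 17 further folding factors 16 were lower and 1, the collagen-associated isomerase *Fkbp14*, was called (-0.32, P-adj = 0.0726, called in 6 of 13 such fits); *Fkbp9* had a log2 fold change of -0.21 (P-adj = 0.114).

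The remaining groups were split in direction. Of 14 translocon and signal peptidase genes 9 were lower and 0 were called by edgeR or DESeq2 (1 at an unadjusted p below 0.05), with *Ssr2* at -0.23 (P-adj = 0.230) and *Sec61g* at -0.19 (P-adj = 0.311). Of 14 other degradation genes 6 were lower and 8 higher, with 0 called by edgeR, 2 by DESeq2 and 4 at an unadjusted p below 0.05; *Nploc4*, a cofactor of the segregase VCP, had a log2 fold change of 0.29 without overlap between groups (P-adj = 0.111) and *Man1b1* one of -0.20 (P-adj = 0.141). Of 14 other sensors and processing genes 8 were lower and 1 was called, *Creb3l2*, a membrane-bound factor of secretory genes (-0.34, P-adj = 0.0854, called in 2 of 13 fits with a mouse left out). The kinase gene *Eif2ak2* had a log2 fold change of -0.22 (P-adj = 0.122).

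Genes known as targets of ATF4 or CHOP were split in direction. Of 23 tested, 9 were lower and 14 higher, with a median of 0.05. The single edgeR call was downward, at *Psat1* of serine synthesis (-0.35, P-adj = 0.0896, called in 2 of 13 fits with a mouse left out). DESeq2 called 3 lower, against 4.65% of all genes, and 2 higher, against 5.58%. Its lower ones were *Psat1* (P-adj = 0.00992), *Nupr1* (log2 fold change -0.42, P-adj = 0.0312) and *Phgdh* (-0.45, P-adj = 0.0911). Its higher ones were *Atf3* (P-adj = 0.00974) and *Cebpb* (P-adj = 0.016). *Cebpb*, whose product pairs with ATF4, had a log2 fold change of 0.47 in edgeR (P-adj = 0.105, SE 0.12), which passed without mouse 3 or mouse 7 at 22°C (lowest P-adj 0.0456). The ERSE was found in 0 of the 84 other pathway genes with a promoter window, against 10 of 32 above, and the ATF4 composite in 11 of 84.

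**Figure D5:**
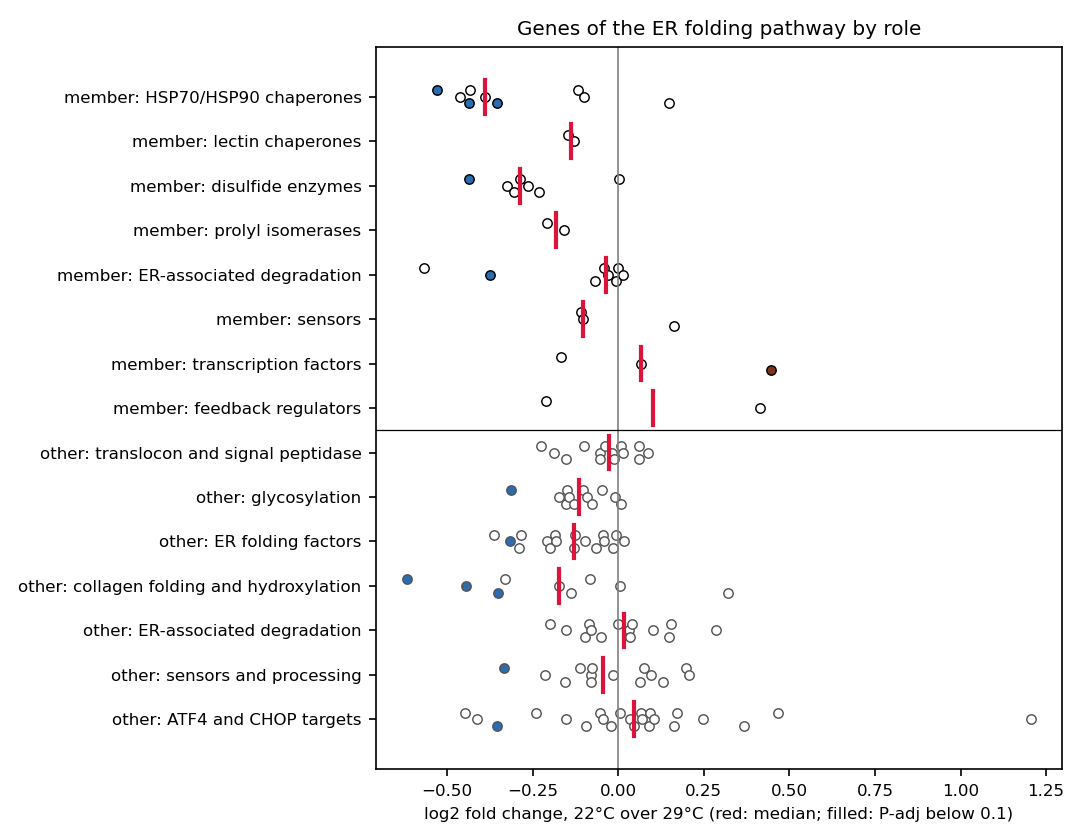
Log2 fold change between 22°C and 29°C of the 36 genes by role (above the line) and of the 103 other tested pathway genes by role (below it), 1 point a gene, with the median of each role in red and filled points at P-adj below 0.1. The medians lie farthest left for the HSP70 and HSP90 chaperones (-0.39) and the disulfide enzymes (-0.29), and those of the degradation groups and the ATF4 and CHOP targets lie near 0.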

How the data were processed

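RNA from gluteal WAT of 13 mice was grouped by the temperature that the labels give. Per the submitters' processing notes and the paper, the authors checked reads with FastQC, aligned them with STAR 2.7.5a to GRCm39 and counted them per gene with featureCounts. They deposited raw counts and, made with DESeq2, regularized log2 values of the same genes. The annotation and strand setting are not given in the sources used here, so counts of overlapping genes and pseudogenes are uncertain. Exons of 12 of the 36 genes overlap another gene in a GENCODE annotation of the earlier build. Symbols were matched by identifier without version (34006 of 34419 genes).

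Counts were tested with edgeR 4.0.16 in R 4.3.3 (TMM, filterByExpr, quasi-likelihood F test, Benjamini-Hochberg over 17779 genes, called at P-adj below 0.1). The absolute log2 fold change divided by the root of F gave the SE. Totals for CPM were TMM-scaled, and log2 CPM had a prior count of 2. Sums over marker lists and the share of counts taken by the 36 genes used unscaled library totals. A cell type score is the mean log2 CPM of its markers. The 36 genes, the pathway and marker lists and the tests were chosen with earlier results of these data known. Genes named are those called, those without overlap, the 3 largest and 3 smallest changes, the sensors and factors, *Hspa5* and, by role of the pathway list, the 2 with the smallest p; others are given by their log2 fold change. Alternatives were DESeq2 1.42.0, its size factors, other filters, robust quasi-likelihood, a replicate block, the cluster of library totals or the muscle score as a covariate, the libraries with higher totals, limma 3.58.1 on the log2 values, P-adj below 0.05 and leaving out each mouse. Leaving out the 2 libraries with most muscle RNA and the fibroblast score as a covariate were added after the data were seen. Precision is limited by the spread between mice, with 7 at 22°C and 6 at 29°C. Library totals were 22356637 to 25245785 counts, and no interval beyond the SE was computed.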

Additional observations from a re-analysis of the deposited data

Results flagged for a closer look

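Each of the 36 genes was examined in each temperature group for 1 mouse lying far from the rest, by the gap to its nearest neighbour over the range of the group on the log2 CPM scale. Of 72 groups examined 5 held such a mouse, and chance gives about 1 in 20. Among them, *Pdia6* and *Edem1* were called. *Pdia6* stood at 163.6 CPM in mouse 1 at 29°C, with the next at 142.2, and its call was lost without that mouse (P-adj = 0.118). *Edem1* stood at 151.4 CPM in mouse 6 at 29°C, with the next at 128.4, and its call was lost without that mouse (P-adj = 0.125).

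The other 3 concern genes that were not called. *Derl1* was lowest in mouse 7 at 22°C at 172.9 CPM, with the next at 211.5. *Derl2* was lowest in mouse 4 at 29°C at 33.81 CPM, with the next at 38.54. *Ern1* was highest in mouse 4 at 22°C at 30.12 CPM, with the next at 25.74.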

How the results depend on the processing

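The number of the 36 genes below 0 (27 to 30) and their median (-0.19 to -0.11) moved little in any alternative, while the calls depended on the fit. Against 345 calls over all genes, 6 of the 36 and 7 of the pathway list in the edgeR fit, DESeq2 gave 1676, 12 and 18. No filter on low counts gave 42, 0 and 1, a covariate for the cluster of library totals 4, 0 and 0, the libraries with higher totals 8, 0 and 0, and the muscle score as a covariate 48, 0 and 1. A P-adj below 0.05 gave 40, 0 and 1. The fibroblast score gave 178 and 2 for all genes and the pathway list, and leaving out the 2 libraries with most muscle RNA gave 4 of the pathway list. Leaving out 1 mouse gave 32 to 652 over all genes, 0 (without mouse 3 at 29°C) to 8 (without mouse 6 at 22°C) of the 36, and 1 to 13 of the pathway list. Of the 36, those at an unadjusted p below 0.05 were 15 with no filter, 12 with the cluster, 12 with higher totals, 15 with the muscle score and 15 without mouse 3. The cause of these differences was not tested.

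The temperature groups share the replicate numbers 1 to 6, and nothing says that a number marks a shared source. Residuals of same-numbered mice correlated at 0.051 to 0.513 across genes, and 4 of 6 cool mice correlated best with their own number. With the replicate block 214 genes were called, 2 of the 36 (*Hyou1*, P-adj = 0.0585, and *Atf4*, 0.0986) and 4 of the pathway list, and the P-adj was 0.120 for *Hsp90b1*, 0.140 for *Pdia6*, 0.114 for *Edem1* and 0.154 for *Manf*.

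Log2 fold changes that turned direction belonged to genes that were not called. With the cluster as a covariate they were 0.0219 for *Pdia5*, -0.379 for *Ero1lb*, 0.1215 for *Herpud1*, 0.0991 for *Syvn1*, -0.0081 for *Derl2* and 0.0869 for *Xbp1*. With higher totals they were 0.0144, -0.3889, 0.1149, 0.0893, -0.0193 and 0.0744 in the same order. With the muscle score they were 0.073 for *Syvn1* and 0.0485 for *Derl1*. *Ero1lb* was -0.0012 with DESeq2, -0.0041 with no filter and -0.0139 with limma. *Herpud1* was 0.0003 with DESeq2 size factors, 0.0003 with a mean of at least 10 counts and 0.0347 with the fibroblast score. *Derl1* was 0.0429 with the replicate block and 0.0476 without the 2 libraries with most muscle RNA. With 1 mouse left out, values ran from -0.0493 to 0.0781 for *Ero1lb*, -0.0532 to 0.0322 for *Herpud1*, -0.0886 to 0.0169 for *Syvn1*, -0.0359 to 0.0417 for *Derl1* and -0.0335 to 0.0689 for *Derl2*.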

Other observations

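*Atf3* and *Chac1*, stress genes of the ATF4 and CHOP list that were picked after their values were seen, varied widely between mice. *Atf3*, an immediate stress factor, averaged 7.89 CPM (SD 4.16, n = 7) in cool mice and 3.41 CPM (SD 0.889, n = 6) in warm mice, with cool mice from 2.86 to 14.9 CPM and warm mice from 2.7 to 4.85 CPM. Its log2 fold change of 1.21 (SE 0.33) was the highest of the pathway list and was not called by edgeR (P-adj = 0.114) but was by DESeq2 (P-adj = 0.00974). *Chac1*, which degrades glutathione, lay between 2.39 and 26.4 CPM in cool mice and between 3.16 and 17.3 CPM in warm mice (log2 fold change 0.17, P-adj = 0.905, SE 0.58).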
